A study of Mus musculus with 12 samples.

Results

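Genes of peroxisome biogenesis and plasmalogen synthesis were described in Schwann cells (SCs) sorted from the postnatal mouse sciatic nerve. They were taken as the 25 rows, of 25700 counted genes, whose mouse Ensembl identifier maps to a listed symbol. The list holds the peroxins that receive, dock and recycle import receptors or insert membrane proteins, the enzymes of ether lipid synthesis, fatty acid transporters, oxidation enzymes and catalase. No measured value entered the choice, although earlier results of these data were known when the list was drawn up.

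The libraries came from sciatic nerves of mice with 1 copy of a Cre transgene, ReYFP Tg/+ and βAct-DsRed Tg/+, at postnatal day 5 (P5), on the C57bl/6J background and of both sexes. The same alleles were present in every library: a Cre transgene switches on eYFP in the SC lineage, and the chicken beta actin promoter drives DsRed in all cells. The 3 gates differed in side scatter: allSC took all eYFP+ cells, mSC the cloud enriched in myelinating SCs and nmSC the cloud enriched in not-myelinating SCs. Each gate gave 4 Smart-seq2 libraries, and the labels give each library a subject number that recurs in each gate.

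Peroxisomes are single-membrane organelles that import folded proteins from the cytosol. Pex5 carries matrix proteins with a signal at the carboxyl end (PTS1) and Pex7 carries those with a signal near the amino end (PTS2), and both deliver them to the docking proteins Pex13 and Pex14. The organelle shortens very long chain and branched fatty acids, breaks down hydrogen peroxide, and makes the first ether-linked intermediates of plasmalogens, phospholipids abundant in myelin.

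Libraries held between 8180927 and 16918122 counted reads, so that 3 counts, taken as the floor of detection, stood for 0.198 to 0.375 CPM (counts scaled to a common library total, corrected for composition by TMM). The SC transcription factor gene Sox10 had a mean near 267 CPM in mSC and 266 CPM in nmSC. The 5 SC markers, Sox10 among them, summed to 6672 to 8115 CPM in mSC and 4174 to 5215 CPM in nmSC. The summed level of 6 myelin genes was 154602 to 212170 CPM in mSC and 17946 to 20575 CPM in nmSC, whereas the 2 cycling cell genes Mki67 and Top2a summed to 35.5 to 57.9 CPM in mSC and 474 to 609 CPM in nmSC. The 5 endothelial markers summed to at most 29.8 CPM and the 5 immune markers to at most 18.4 CPM in any library. The 5 fibroblast markers summed to 436 to 1035 CPM in mSC and 2928 to 4109 CPM in nmSC, nearly all from Col1a1. Of the others, Pdgfra and Dcn had means of at most 2.64 and 12.8 CPM in a gate, and Cd34 and Lum are not given here. The 4 perineurial markers summed to 137 to 217 CPM in mSC and 204 to 339 CPM in nmSC. The part of these markers in the differences below was not tested. Library mSC replicate 4 stood 0.40 (log2) from the other mSC libraries for the genes with the shortest transcripts and -0.11 for those with the longest (the outer of 4 equal classes), and mSC replicate 1 ran the other way, from -0.23 to 0.19.

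All 25 genes passed the expression filter. In mSC against nmSC, 16 were higher, 1 was lower and 8 did not pass the threshold (edgeR's quasi-likelihood test, Benjamini-Hochberg adjusted p under 0.05 over 18597 tested genes). Of all tested genes, 20.4% were called higher, 20.2% lower and 40.5% in either direction. The 17 that changed were the 3 enzymes of ether lipid synthesis (Far1, Gnpat, Agps), the transporters Abcd3 and Abcd2, the oxidation enzymes Ehhadh, Scp2, Acaa1a, Hsd17b4, Phyh and Amacr, catalase, and the peroxins Pex7, Pex13, Pex3, Pex19 and Pex26. Abcd2 alone was lower in mSC. The lowest library of mSC was above the highest of nmSC for 14 of the 25, against 16.8% of all tested genes, and below the lowest of nmSC for 1, Abcd2, against 17.4%. In 15 genes mSC was higher than nmSC in all 4 same-numbered pairs. For the 14 without overlap this follows from the separation, and the other was Hsd17b4. The share of all tested genes was not computed. With library size alone, 12 of the 25 did not overlap, against 49.8% of all tested genes in either direction. Gnpat, Agps, Abcd3, Pex3, Phyh and Amacr then overlapped. Pex2, Pex16 and Pex11a were then separate, with mSC lower (log2 fold changes -0.40, -0.37 and -0.73).

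The median log2 fold change of the 25 genes was 0.67, while that of all tested genes was -0.16, a distance of 0.83. Between same-numbered libraries this distance was 0.97, 0.83, 0.48 and 0.80. The position of 0 depends on the scaling. Library size alone moved the median of all tested genes to -0.73, with 1443 genes called higher and 10421 lower, and left 11 of the 25 higher and 6 lower at a distance of 0.82. With offsets for transcript length, 19 were higher and 1 lower, among 5342 higher and 2400 lower of all tested genes. Far1, Gnpat, Agps, Abcd3, Ehhadh, Scp2, Acaa1a, Cat, Pex7, Pex13 and Pex19 were called higher, and Abcd2 lower, in each of the 19 alternatives run for mSC against nmSC. Because the samples are bulk RNA, fewer cells expressing a gene and less RNA per cell cannot be told apart.

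**Figure D1:**
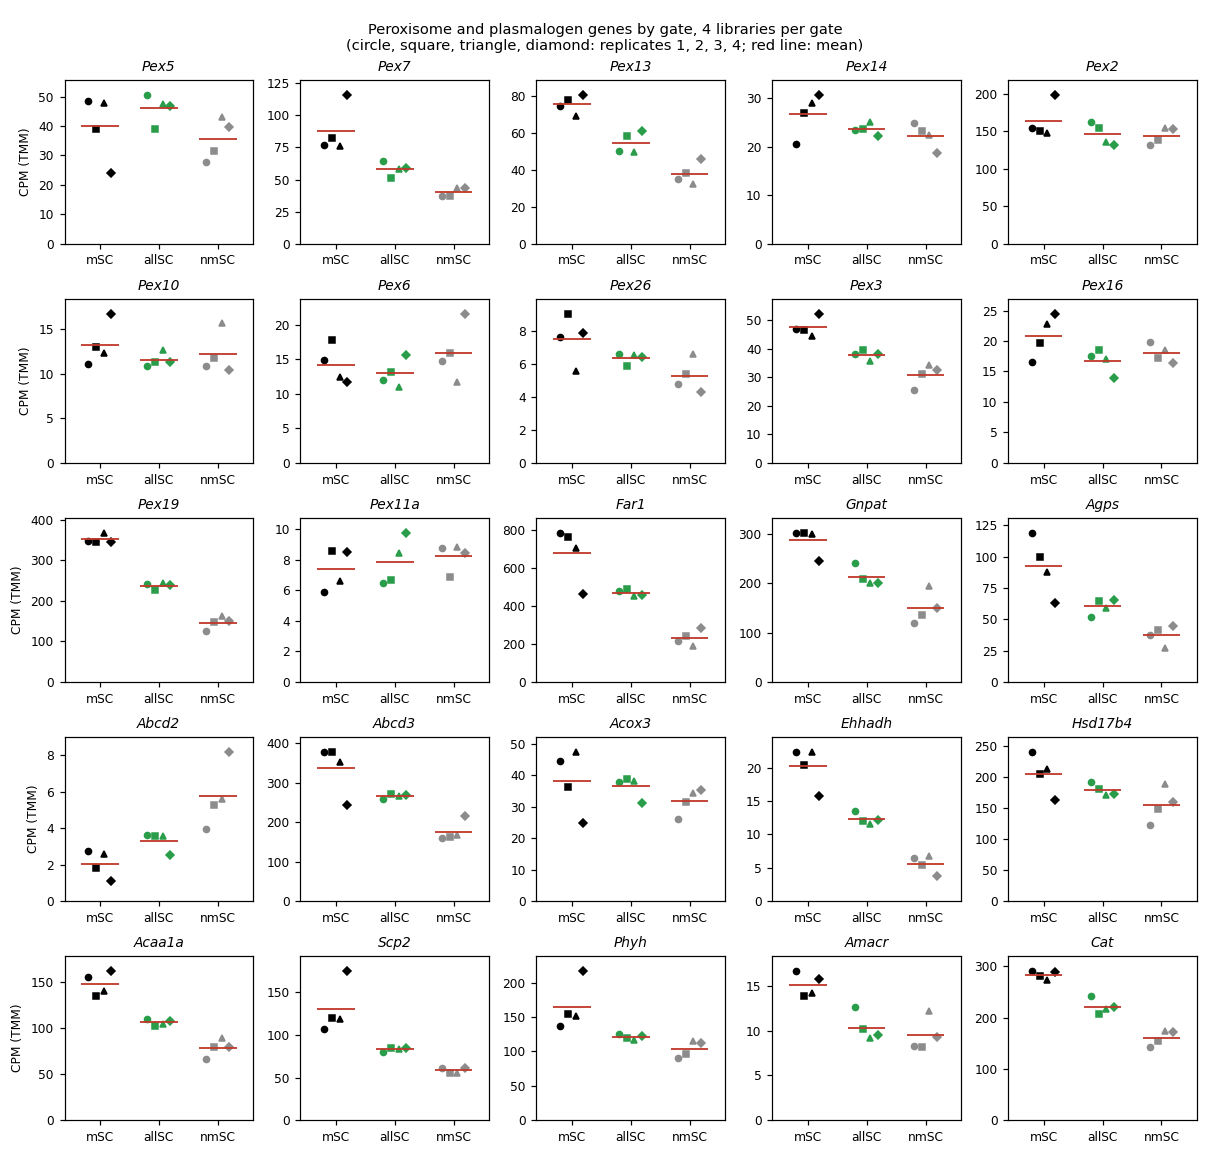
Each panel plots 1 gene in CPM scaled by TMM (linear axis from 0) for the 4 libraries of each gate, with the replicate given by the marker shape and the gate mean by a red line. In 14 panels every mSC library lies above every nmSC library, and in the Abcd2 panel every mSC library lies below.

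The 25 genes were searched for import signals in their GENCODE coding sequences, since these name the receptor that carries each product. Of the 25, 6 end in codons of the PTS1 class (Gnpat, Ehhadh, Hsd17b4, Scp2, Amacr and Cat), a class found at the end of 0.634% of 21459 genes with a complete coding sequence. The class was serine, alanine or cysteine, then lysine, arginine, histidine or asparagine, then leucine or methionine. Another 3 have the PTS2 nonapeptide within the first 60 codons (Agps at codon 50, Acaa1a at codon 3 and Phyh at codon 9), against 0.238% of the same genes. Its class was arginine or lysine, a second residue of leucine, valine, isoleucine or glutamine, any pair, leucine, valine, isoleucine, histidine or glutamine, then leucine, serine, glycine, alanine or lysine, any residue, histidine or glutamine, and leucine, alanine or phenylalanine. The window of 60 codons was set after a shorter one had missed Agps. The last 30 coding bases before the stop codon (GRCm38), with the codons of the PTS1 tripeptide in capitals, show how the carboxyl end varies among cargo of Pex5.
Gnpat, chr8:124889283-124889312, plus strand: ccaataggaaaaccagccactGCAAAACTA
Ehhadh, chr16:21762087-21762116, minus strand: agcttggcaggaccccatagcAGCAAACTG
Scp2, chr4:108044753-108044782, minus strand: cttcagcttcagccgggcaaaGCTAAGCTG
Amacr, chr15:10995217-10995246, plus strand: gttgaaagtgataagctaaaaGCCAATCTC
Cat, chr2:103454759-103454788, minus strand: cacatggctgcgaagggaaaaGCTAACCTG

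The 27 coding bases of the PTS2 motif (GRCm38), with the codons of its first and last residue pairs in capitals, are shown for the 3 genes whose products Pex7 carries.
Agps, chr2:75832360-75832386, plus strand: CGGCTGcgggttctgtcgggcCATCTG
Acaa1a, chr9:119341521-119341547, plus strand: CGGCTGcaggtagtgctgggcCACCTG
Phyh, chr2:4919094-4919120, plus strand: CGGCTGcaggtccttctgggaCACCTC

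All 3 enzymes of ether lipid synthesis were higher in mSC. Far1 (ENSMUSG00000030759, chr7:113513834-113571511, plus strand) encodes the fatty acyl-CoA reductase that makes the fatty alcohol and sets the rate of the pathway. It measured 784, 762, 706 and 460.1 CPM in mSC replicates 1 to 4, 478, 489.6, 449 and 455 CPM in allSC and 215, 243, 189 and 285 CPM in nmSC. The groups mSC and nmSC did not overlap, and mSC replicate 4 was the lowest of its gate. Far1 was 2.91-fold higher in mSC (log2 fold change 1.54 ± 0.16 (SE), adjusted p = 2.25e-07). Exons of Far1 overlap a gene on the opposite strand, as do those of Acaa1a, Pex3, Pex16 and Pex26.

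Gnpat (ENSMUSG00000031985, chr8:124863033-124890057, plus strand) encodes the acyltransferase that starts ether lipids on dihydroxyacetone phosphate. Its levels were 302, 302, 299 and 245 CPM in mSC and 119.9, 137, 194 and 151 CPM in nmSC, with allSC at 212 ± 19 CPM (SD, n = 4). No nmSC library reached the lowest mSC library, and mSC replicate 4 lay apart from the other mSC libraries. The difference was 1.91-fold (log2 fold change 0.93 ± 0.14 (SE), adjusted p = 2.79e-05). With library size alone the gates overlapped, though the gene was still called (log2 fold change 0.38, adjusted p = 0.0234). Gnpat shares exons with a gene on its own strand, so its reads could be split by the counting.

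Agps (ENSMUSG00000042410, chr2:75832177-75931350, plus strand) encodes the synthase that exchanges the acyl chain for the fatty alcohol, and its PTS2 codons are printed above. It measured 119, 99.5, 87.5 and 63.2 CPM in mSC, 51.9, 64.5, 59.04 and 65.5 CPM in allSC and 37.6, 41.8, 27 and 44.7 CPM in nmSC. The lowest mSC library, replicate 4, was still above the highest of nmSC, and the allSC mean lay between. Agps was 2.44-fold higher in mSC (log2 fold change 1.29 ± 0.18 (SE), adjusted p = 1.27e-05). With library size alone the gates overlapped, though the gene was still called (log2 fold change 0.74, adjusted p = 0.00531).

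**Figure D2:**
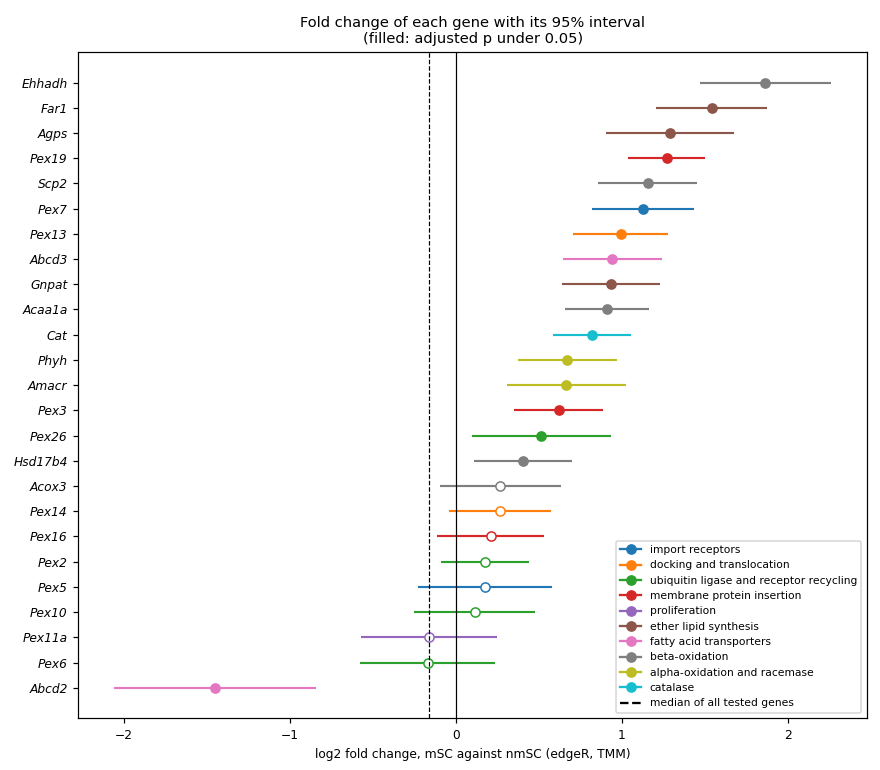
Points are log2 fold changes of the 25 genes in mSC against nmSC with 95% intervals, coloured by role and filled where the adjusted p was under 0.05. The dashed line is the median of all tested genes at -0.16; Ehhadh is farthest to the right at 1.86 and Abcd2 farthest to the left at -1.45, and scaling by library size alone places Pex5, Pex14, Pex2, Pex10, Pex26, Pex16, Acox3 and Hsd17b4 left of 0.

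Among the import receptors, Pex7 was higher in mSC and Pex5 did not pass the threshold. Pex7 (ENSMUSG00000020003, chr10:19853900-19907689, minus strand) measured 76.6, 82.4, 76.3 and 116 CPM in mSC, 64.7, 51.3, 58.3 and 58.6 CPM in allSC and 36.9, 37.2, 43.1 and 43.2 CPM in nmSC. The gates did not overlap, and mSC replicate 4 was the highest. The difference was 2.19-fold (log2 fold change 1.13 ± 0.15 (SE), adjusted p = 4.51e-06). Genes with either signal were called higher, the 3 with a PTS2 motif and the 6 with a PTS1 end, although Phyh, Amacr and Hsd17b4 were not with library size alone.

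Pex5 (ENSMUSG00000005069, chr6:124396816-124415067, minus strand), the receptor for PTS1 cargo and the partner that Pex7 needs, measured 48.7, 39.1, 47.8 and 23.97 CPM in mSC and 27.7, 31.5, 42.9 and 39.7 CPM in nmSC. The gates overlapped, and mSC replicate 4 was below all 4 nmSC libraries. The log2 fold change was 0.17 (95% interval -0.23 to 0.58, adjusted p = 0.4802), and it was -0.37 with library size alone. Within a library, where no scaling enters, the ratio of Pex7 to Pex5 counts was 2.53 ± 1.56 in mSC and 1.15 ± 0.141 in nmSC (SD, n = 4), without overlap. The mSC ratio ran from 1.57 to 4.84. Of 11 such ratios computed, 6 did not overlap between mSC and nmSC; they are descriptions and were not tested.

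Of the docking pair, Pex13 was higher and Pex14 was not called. Pex13, which spans the membrane, measured 74.8, 77.6, 69.4 and 80.7 CPM in mSC and 35.3, 38.2, 32.2 and 46.1 CPM in nmSC. These groups lay well apart, at 1.99-fold (log2 fold change 0.99 ± 0.14 (SE), adjusted p = 7.83e-06). Pex14, which binds the loaded receptor, measured 20.5 to 30.7 CPM in mSC and 18.7 to 24.8 CPM in nmSC, and the ranges overlapped (log2 fold change 0.27 ± 0.15 (SE), adjusted p = 0.1501). Without mSC replicate 1 its log2 fold change was 0.39 (adjusted p = 0.0334), and with library size alone it was -0.31. Exons of both genes overlap a gene on the opposite strand, and Smart-seq2 reads do not record the strand.

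Of the 4 genes that return receptors to the cytosol, only Pex26 was called. Pex2 and Pex10, subunits of the ubiquitin ligase, measured 148 to 199 CPM and 11.1 to 16.7 CPM in mSC against 131 to 154 CPM and 10.4 to 15.7 CPM in nmSC. Their ranges overlapped, with log2 fold changes (± SE, here and below) of 0.18 ± 0.13, adjusted p = 0.271 and 0.11 ± 0.17, adjusted p = 0.619, and with library size alone Pex2 and Pex10 were called lower in mSC. Pex6, an ATPase that extracts the receptors, was at 11.7 to 17.7 CPM in mSC and 11.7 to 21.6 CPM in nmSC (log2 fold change -0.17 ± 0.19 (SE), adjusted p = 0.495). Its sign turned to 0.12 with offsets for transcript length, and with library size alone it was called lower at -0.73. Pex26, the membrane anchor of that ATPase, was called higher at 1.43-fold (log2 fold change 0.51 ± 0.20 (SE), adjusted p = 0.0475), with 5.59 to 9.04 CPM in mSC and 4.29 to 6.58 CPM in nmSC. With the subject number as a block its adjusted p was 0.0717, it was not called without any 1 of 6 libraries (all but replicate 3 of either gate; adjusted p from 0.0641 to 0.136), and library size alone gave -0.05.

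Pex19, the chaperone that brings newly made membrane proteins to the peroxisome, was higher in mSC. It measured 349, 346, 368 and 346 CPM in mSC, 241, 227, 245 and 238 CPM in allSC and 126, 147, 162 and 150.0 CPM in nmSC. The 3 gates did not overlap, and mSC was 2.41-fold above nmSC (log2 fold change 1.27 ± 0.11 (SE), adjusted p = 2.01e-08). Its membrane receptor Pex3 was at 46.9, 46.4, 44.4 and 52.2 CPM in mSC and 25.4, 31.3, 34.4 and 32.5 CPM in nmSC, again without overlap (log2 fold change 0.62 ± 0.13 (SE), adjusted p = 0.000662), but with library size alone its log2 fold change was 0.054 (adjusted p = 0.684) and the gates overlapped. Pex16, which recruits Pex3, was at 16.6 to 24.5 CPM in mSC and 16.4 to 19.8 CPM in nmSC and was not called (log2 fold change 0.21 ± 0.15 (SE), adjusted p = 0.276); with library size alone it was called lower at -0.37. Within libraries the ratio of Pex19 to Pex3 was 7.45 ± 0.676 in mSC and 4.74 ± 0.141 in nmSC (SD, n = 4), and that of Pex19 to Pex16 was 17.2 ± 2.91 and 8.19 ± 1.26. Pex11a, which takes part in peroxisome elongation and division, was at 5.91 to 8.61 CPM in mSC and 6.898 to 8.82 CPM in nmSC (log2 fold change -0.16 ± 0.19 (SE), adjusted p = 0.517), and was called lower at -0.73 with library size alone.

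The fatty acid transporters of the peroxisomal membrane moved in opposite directions. Abcd3 (PMP70), a carrier of branched and long chain acyl-CoA, measured 378, 378, 354 and 244 CPM in mSC, 258, 272, 266 and 269 CPM in allSC and 159, 162, 168 and 215 CPM in nmSC. No nmSC library reached the lowest mSC library, though mSC replicate 4 and nmSC replicate 4 came close. The difference was 1.92-fold (log2 fold change 0.94 ± 0.14 (SE), adjusted p = 2.72e-05). With library size alone the gates overlapped, though Abcd3 was still called (log2 fold change 0.39, adjusted p = 0.0313). Abcd2 (ENSMUSG00000055782, chr15:91145871-91191799, minus strand), a carrier of very long chain acyl-CoA, measured 2.72, 1.83, 2.56 and 1.12 CPM in mSC, 3.64, 3.55, 3.55 and 2.52 CPM in allSC and 3.94, 5.28, 5.61 and 8.18 CPM in nmSC. All mSC libraries were below all nmSC libraries, at a level where 1 library held only 9 counts of the gene. Abcd2 fell by 1.45 ± 0.29 (SE) on the log2 scale (adjusted p = 0.000512), and the ratio of Abcd3 to Abcd2 within libraries was 175 ± 42.7 in mSC and 31.9 ± 5.98 in nmSC (SD, n = 4).

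Of the 5 genes of peroxisomal beta-oxidation, 4 were higher in mSC. Ehhadh (ENSMUSG00000022853, chr16:21761287-21787807, minus strand), the L-bifunctional enzyme, showed the largest fold change of the 25, with 22.4, 20.4, 22.4 and 15.7 CPM in mSC, 13.6, 12.1, 11.6 and 12.2 CPM in allSC and 6.44, 5.45, 6.73 and 3.76 CPM in nmSC. The 3 gates were separate, and mSC was 3.64-fold above nmSC (log2 fold change 1.86 ± 0.19 (SE), adjusted p = 1.61e-07). Hsd17b4, the D-bifunctional enzyme that catalyses the same pair of steps, was at 163 to 240.5 CPM in mSC and 123 to 189.5 CPM in nmSC, which overlapped (log2 fold change 0.41 ± 0.14 (SE), adjusted p = 0.0286). It was not called without mSC replicate 1 or 3 or nmSC replicate 1 or 2 (adjusted p from 0.0609 to 0.0919), and its sign turned to -0.14 with library size alone. The ratio of Ehhadh to Hsd17b4 counts was 0.0984 ± 0.00503 in mSC and 0.0371 ± 0.0119 in nmSC (SD, n = 4), without overlap.

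Scp2, which encodes the sterol carrier protein and thiolase for branched chains, measured 107, 119.9, 119 and 175 CPM in mSC and 60.96, 55.5, 55.6 and 61.7 CPM in nmSC. The gates were separate and mSC replicate 4 was the highest (log2 fold change 1.16 ± 0.14 (SE), adjusted p = 2.08e-06). Acaa1a, the thiolase that ends the straight-chain cycle, measured 155, 135, 141 and 162 CPM and 66.1, 79.5, 89.5 and 79.96 CPM, also without overlap (log2 fold change 0.91 ± 0.12 (SE), adjusted p = 5.68e-06). Acox3, an oxidase for branched chains, was at 44.5, 36.2, 47.5 and 24.97 CPM in mSC and 25.96, 31.7, 34.5 and 35.2 CPM in nmSC. Replicates 1 to 3 of mSC lay above all nmSC libraries and replicate 4 below them, and the gene was not called (log2 fold change 0.27 ± 0.17 (SE), adjusted p = 0.219). Without that library its log2 fold change was 0.43 (adjusted p = 0.0181), with library size alone it was -0.28, and its exons overlap a gene on the other strand.

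Phyh, which starts the alpha-oxidation of phytanic acid, measured 137, 155, 152 and 217 CPM in mSC and 90.3, 96.1, 116 and 113 CPM in nmSC. The gates did not overlap, with mSC replicate 4 again the highest (log2 fold change 0.67 ± 0.14 (SE), adjusted p = 0.0008301). The racemase gene Amacr, whose product prepares branched chains for beta-oxidation, was at 13.8 to 16.6 CPM in mSC and 8.18 to 12.2 CPM in nmSC, without overlap (log2 fold change 0.67 ± 0.17 (SE), adjusted p = 0.00459). With library size alone neither Phyh nor Amacr passed the threshold, and the gates overlapped for both. Cat, the enzyme that removes hydrogen peroxide, measured 291, 281, 274 and 289 CPM in mSC, 243, 207, 216 and 221 CPM in allSC and 143, 154, 175 and 171 CPM in nmSC. All mSC libraries were above all others, at 1.77-fold over nmSC (log2 fold change 0.82 ± 0.11 (SE), adjusted p = 6.89e-06).

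Levels of different genes were compared per length, as RPKM on the union of exons. Over the 12 libraries Cat had the highest mean, with 109 RPKM in mSC, 84.8 in allSC and 61.5 in nmSC. Abcd2 had the lowest, with 0.346, 0.557 and 0.968 RPKM. In nmSC alone, Pex2 was above Cat at 63.6 RPKM and Pex26 was below Abcd2 at 0.928 RPKM. Below Cat, over the 12 libraries, followed Phyh, Pex2, Pex19, Gnpat, Far1 and Hsd17b4, which were between 60.4 and 92.3 RPKM in mSC. In mSC, Phyh (87.4 ± 18.7 RPKM), Far1 (84.2 ± 18.5 RPKM) and Gnpat (80.1 ± 7.77 RPKM) differed by less than the SD of Phyh. Per length, the receptor genes Pex5 (10.1 RPKM in mSC) and Pex7 (7.26 RPKM) lay far below the ligase subunit Pex2 (71.8 RPKM) and the chaperone Pex19. The order depends on the length used: with the mean transcript length in place of the union of exons, Far1 ranked 1st and Pex19 2nd.

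**Figure D3:**
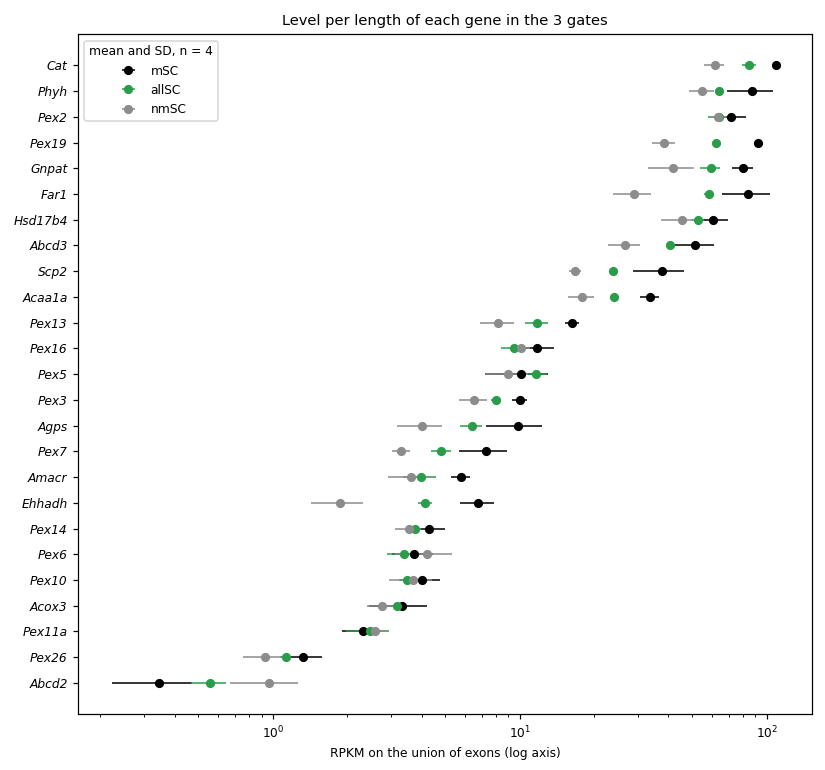
Points are mean RPKM on the union of exons (log axis) of each gene in mSC, allSC and nmSC, with bars for the SD of 4 libraries, and genes ordered by their mean over 12 libraries. Cat is at the top and Abcd2, the gene with its nmSC point farthest to the right of its mSC point, is at the bottom.

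The allSC gate, which covers both clouds, gave means between those of mSC and nmSC for 21 of the 25, against 69.5% of all tested genes (81.3% with library size alone, and again 21 of the 25). The exceptions were Pex5, Pex10, Pex6 and Pex16, none of which differed between mSC and nmSC by the test. With library size alone they were Pex5, Pex26, Phyh and Amacr, none called with that scaling, though the main test called Pex26, Phyh and Amacr. The comparisons with allSC share libraries with each other and with the one above, so their values are given side by side. In mSC against allSC, 12 were higher (8.76% of all tested genes) and 0 lower (8.8%; 17.6% in either direction), at a median log2 fold change of 0.35. In nmSC against allSC, 11 were lower (7.54%) and 0 higher (2.83%; 10.4% in either direction), at a median of -0.30.

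Far1 was 0.54 higher in mSC than in allSC on the log2 scale (adjusted p = 0.0236) and -1.004 in nmSC against allSC (adjusted p = 0.000212). For Ehhadh the values were 0.72 (adjusted p = 0.00867) and -1.15 (adjusted p = 0.000336), and for Pex19 0.57 (adjusted p = 0.00112) and -0.70 (adjusted p = 0.000192). Phyh and Amacr passed only on the mSC side, with 0.45 and 0.54 against allSC (adjusted p = 0.0335 and 0.0344), and -0.22 and -0.12 in nmSC (adjusted p = 0.405 and 0.7698; 0.030 and 0.13 with library size alone). Against allSC neither was called without allSC replicate 2, 3 or 4, and Amacr was not called with the subject number as a block (adjusted p = 0.0531). Abcd3 passed only on the nmSC side, at 0.35 (adjusted p = 0.0984) and -0.59 (adjusted p = 0.00903), and whether the sides differ was not tested. Without mSC replicate 4 it was called on the mSC side too (0.50, adjusted p = 0.0019), and with library size alone on neither (-0.34 in nmSC against allSC, adjusted p = 0.132). Abcd2 passed on neither, with -0.66 (adjusted p = 0.136) and 0.79 (adjusted p = 0.0789), but with library size alone on both (-0.95, adjusted p = 0.0322, and 1.04, adjusted p = 0.0189).

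With any 1 library left out, 15 of the 17 calls between mSC and nmSC were kept, but fewer of those against allSC. The 12 fell to 5 without allSC replicate 3 and 7 without allSC replicate 4, and Pex7, Pex19, Ehhadh, Acaa1a and Scp2 were called whichever library was left out. The 11 fell to 5 without allSC replicate 4, 6 without allSC replicate 2, and 7 without allSC replicate 1 or 3 or nmSC replicate 2, and Pex19, Far1, Abcd3, Ehhadh and Cat were called throughout. With library size alone the counts in mSC against allSC were 0 higher and 1 lower, among 415 higher and 3985 lower of 18597 tested genes. Those in nmSC against allSC were 3 lower and 1 higher, among 744 lower and 2207 higher.

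Of 76 other genes of peroxisomes and ether lipids, 75 were tested. In mSC against nmSC 30 were higher and 7 lower, beside 20.4% and 20.2% of all tested genes. With library size alone 13 were higher and 31 lower, among 1443 higher and 10421 lower of 18597 tested genes. In 12 further genes of ether lipid synthesis and breakdown, 7 were higher and 0 lower. Tmem189, which encodes the plasmanylethanolamine desaturase that forms the vinyl ether bond of plasmalogens, measured 125, 184, 146 and 187 CPM in mSC and 37.5, 22.4, 28.4 and 26.98 CPM in nmSC. The gates were far apart (2.48 ± 0.17, adjusted p = 4.58e-10), but its exons overlap another gene model on the same strand and Cebpb on the other. Pcyt2, which makes CDP-ethanolamine for the head group, was at 866, 881, 886 and 893 CPM in mSC and 148, 162, 189 and 157 CPM in nmSC (2.43 ± 0.12, adjusted p = 5.74e-12). Selenoi, the ethanolamine phosphotransferase, was at 274 ± 45.02 CPM and 65.9 ± 9.55 CPM (SD, n = 4), with a log2 fold change of 2.06 ± 0.14, adjusted p = 6.77e-10. Far2, the paralog of Far1, did not pass the threshold (0.16 ± 0.13, adjusted p = 0.327, called lower at -0.40 with library size alone), and the ratio of Far1 to Far2 counts was 23.96 ± 6.65 in mSC and 9.02 ± 0.904 in nmSC (SD, n = 4).

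**Figure D4:**
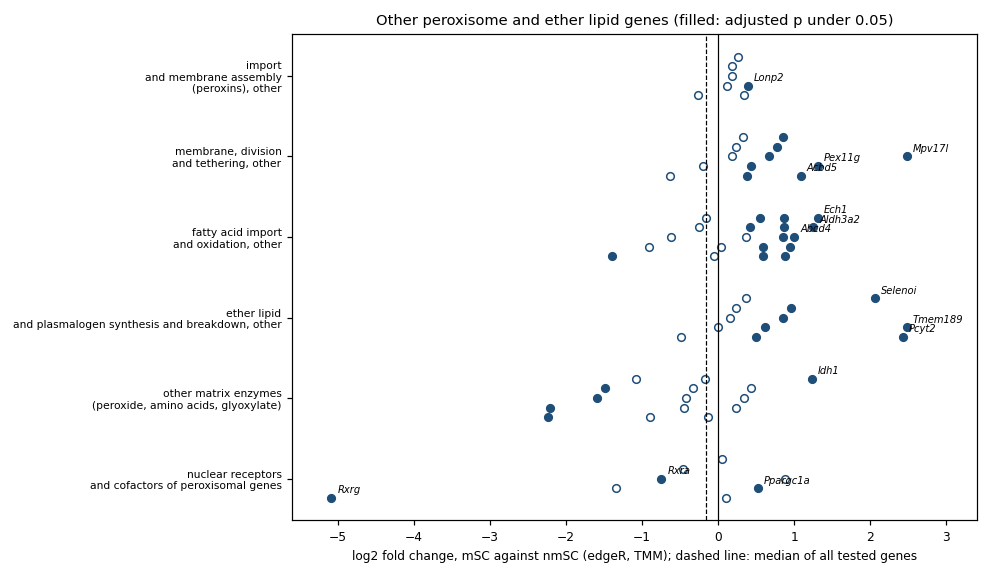
Each point is the log2 fold change of 1 other pathway gene in mSC against nmSC, in rows by list and filled where the adjusted p was under 0.05, with the dashed line at the median of all tested genes. Pcyt2, Tmem189 and Selenoi lie beyond 2 in the ether lipid row and Rxrg lies at -5.09. With library size alone 13 of these genes were called higher and 31 lower, among 1443 higher and 10421 lower of all tested genes.

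Among 13 membrane, division and tethering genes, 8 were higher and 0 lower. Of all tested genes, 20.4% were higher and 20.2% lower, the shares to set beside each list of this paragraph. Mpv17l, a peroxisomal membrane protein, had a log2 fold change of 2.48 ± 0.23, adjusted p = 5.98e-08, Pex11g, a division factor, one of 1.31 ± 0.19, adjusted p = 1.44e-05, and Acbd5, which tethers peroxisomes to the endoplasmic reticulum, one of 1.08 ± 0.15, adjusted p = 9.22e-06. Of 20 genes of fatty acid import and oxidation, 12 were higher and 1, Slc27a2, was lower at a mean under 10 CPM. The higher ones were led by the dienoyl-CoA isomerase gene Ech1 (1.31 ± 0.16, adjusted p = 2.84e-06), the fatty aldehyde dehydrogenase gene Aldh3a2 (1.25 ± 0.16, adjusted p = 2.98e-06) and Abcd4, whose product is known mainly from lysosomes (1.003 ± 0.14, adjusted p = 7.82e-06). Far2, Slc27a2 and Ppara were named after their values were seen. Of 7 further import genes 1 was called, the protease gene Lonp2 (0.39 ± 0.13, adjusted p = 0.0264), beside 40.5% of all tested genes in either direction. The sign of Lonp2 turned to -0.17 with library size alone.

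Of 15 other matrix enzymes tested, 1 was higher (beside 20.4% of all tested genes), the isocitrate dehydrogenase gene Idh1 at 1.23 ± 0.13, adjusted p = 2.92e-07, and 4 were lower (beside 20.2%). These 4 were Ephx2, Hao1, Pipox and Uox, named after their values were seen, all with a mean under 10 CPM over both gates. Of 8 nuclear receptor and cofactor genes, 1 was higher and 2 were lower. Rxrg, a retinoid X receptor gene, measured 1.29, 3.305, 2.33 and 3.87 CPM in mSC, 52.3 ± 4.69 CPM (SD, n = 4) in allSC and 60.9, 85.5, 105 and 102 CPM in nmSC, without overlap (log2 fold change -5.09 ± 0.26, adjusted p = 1.10e-11). Rxra had a log2 fold change of -0.75 ± 0.16, adjusted p = 0.000937 and the coactivator gene Ppargc1a one of 0.52 ± 0.16, adjusted p = 0.0171, which turned to -0.039 with library size alone. Ppara, the receptor known for inducing peroxisomal oxidation genes in liver, did not pass the threshold (0.10 ± 0.25, adjusted p = 0.752), and was at -0.45 with library size alone.

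**Figure D5:**
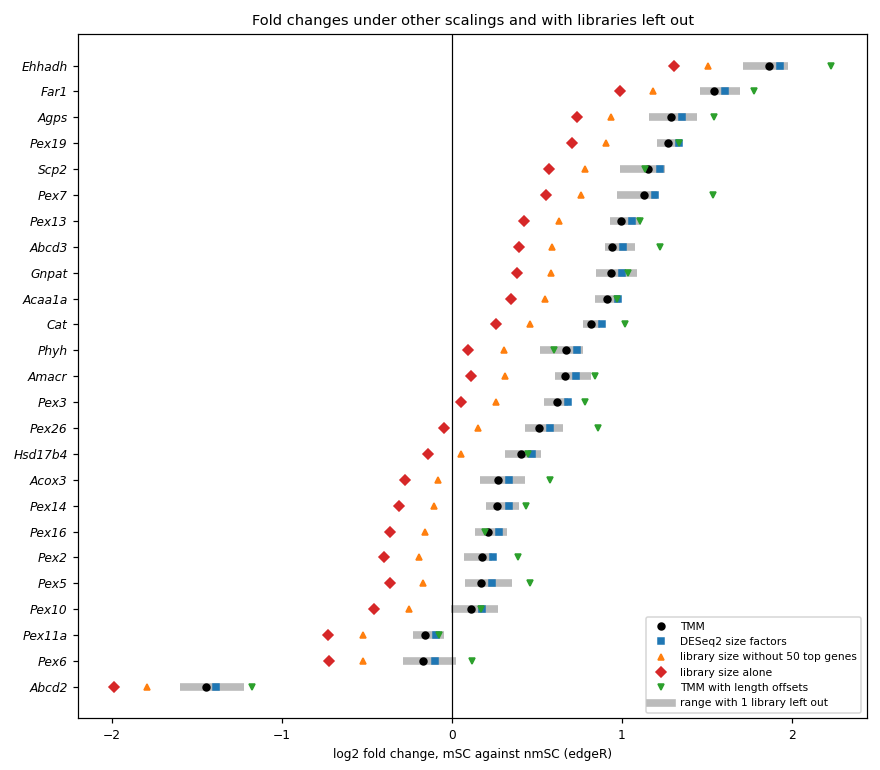
Markers give the log2 fold change of each of the 25 genes in mSC against nmSC under 5 scalings, and grey bars the range when 1 library is left out. Library size alone shifts every point to the left and places 8 genes on the other side of 0. The genes from Ehhadh down to Pex3 stay to the right of 0, and Abcd2 and Pex11a stay to the left.

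Promoter windows of 300 bases (250 before and 50 after the start, RefSeq, GRCm38.p6) were found for 20 of the 25 genes, as 24 windows. Their median GC content was 60%, and that of 32851 windows was 52.7%. A direct repeat of AGGTCA with 1 base between the copies (DR1), the form read by PPAR and retinoid X receptor pairs, was searched on both strands with up to 2 mismatches and lay in 1 window, that of Cat, against 3.86% of all windows, and without mismatch in 0, against 0.0396%. The core GCGTGGGCG of the Egr factors, which include the myelination regulator Egr2, lay in 1 window, that of Pex13, against 0.612% of all. The bases around both matches are shown with the match in capitals, because they were the only matches in the 24 windows.
Cat, chr2:103485337-103485365, minus strand: actctcagAGGTCAGAGAACAccagcagg
Pex13, chr11:23665941-23665965, minus strand: gacgtcagGCGTGGGCGgggcggag

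The Cat match starts 204 bases before the RefSeq start of the gene and the Pex13 match 74 bases before. A match is a description of letters and was not tested for binding.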

How the data were processed

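RNA of SCs sorted at P5 was measured in 12 libraries, 4 per gate. Trimmed reads were aligned by the authors with STAR 2.6.1c and assigned to genes with featureCounts, and the deposited values are raw counts without normalization. The submitters' processing notes give GRCm38.p5, while the methods name a human build; the identifiers are those of mouse. How strand, reads with several matches and overlapping genes were handled is not given in the sources used here. GENCODE M21 (GRCm38) matched 25664 of 25700 identifiers. Exons of 9 of the 25 genes overlap another gene: Far1, Gnpat, Acaa1a, Acox3, Pex3, Pex13, Pex14, Pex16 and Pex26. The overlapping genes lie on the opposite strand, and for Gnpat also on its own.

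From the counts, edgeR 4.0.16 (R 4.3.3) gave TMM factors (0.744 to 0.871 in mSC, 1.16 to 1.28 in nmSC), CPM, a filter on low counts by gate and the quasi-likelihood test in 1 model over all libraries. Adjustment was by Benjamini-Hochberg, and calls were made under 0.05. RPKM used the union of exons. All 25 genes are named; of the other lists, in each direction up to 3 genes with the smallest adjusted p and at least 10 CPM. Some genes of these lists are not reported here. The members and lists were chosen with earlier results of these data known. DESeq2 1.42.0, other scalings, filters and models, offsets for transcript length and left-out libraries served as alternatives; the length offsets and the removal of both mSC replicates 1 and 4 were added after seeing the data.

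The labels give 1 subject number to a library of each gate, and this number pairs the gates. Deviations of same-numbered libraries from their gate means correlated between -0.0794 and 0.153. Each library came from 1 mouse. The main test did not use the pairing and took the 12 libraries as independent. Its p-values measure the spread between libraries of a gate, in which mouse, sorting and library preparation cannot be told apart. With the subject number as a block, 15 of the 25 were higher and 1 lower in mSC against nmSC. Sex was not used, since the labels do not give it for each library. No pair of libraries in a gate was a duplicate (chi-square per degree of freedom at least 4.03). Floors cover counting error only. Counts for mSC against nmSC were simulated in 5 draws (17799 tested genes, 200 changed by 1 or 2 on the log2 scale). In them edgeR recovered 59.0% of genes changed by 1 and 90.9% of those changed by 2, with 5.32% false calls. DESeq2 recovered 63.1% and 92.8%, with 12.7% false calls. The draws raised as many genes as they lowered and held no shift in composition and no length trend. In the data 40.5% of tested genes were called, so these rates cannot be carried over to the calls above.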

Additional observations from a re-analysis of the deposited data

Results flagged for a closer look

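In groups of 4 libraries, 7 of 75 gene and gate combinations held a library far from the others by Dixon's criterion, where chance gives about 1 in 20 groups. Of these, 3 were in mSC replicate 4: Pex7 at 116 CPM and Pex2 at 199 CPM stood above the other mSC libraries, and Gnpat at 245 CPM stood below them. Pex19 stood high in mSC replicate 3 at 368 CPM. In allSC replicate 4, Abcd2 at 2.52 CPM and Acox3 at 31.3 CPM were low, and Abcd3 was high in nmSC replicate 4 at 215 CPM. In mSC, replicates 1 and 4 both deviated with transcript length, in opposite directions. The library mSC replicate 4 stood at 0.40 (log2) for the shortest transcripts and -0.11 for the longest. Against the other mSC libraries it differed by 0.56 for Pex7, in the class of the longest transcripts, and by -0.29 for Gnpat, in that of the shortest, both opposite to this trend, and by 0.39 for Pex2, in the second shortest class. With both mSC replicates 1 and 4 left out, 16 of the 25 genes were higher and 1 lower in mSC against nmSC.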

How the results depend on the processing

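Between mSC and nmSC, the distance of the 25 genes' median from that of all tested genes was 0.76 to 0.92 with 1 library left out, with 14 to 16 higher, 1 lower, 26 to 33 other pathway genes higher and 5 to 8 lower, of 6174 to 7990 called genes. Library size alone gave 6 lower, 11864 called genes and 13 and 31 other pathway genes, with Pex5 at -0.37, Pex14 -0.31, Pex2 -0.40, Pex10 -0.46, Pex26 -0.048, Pex16 -0.37, Acox3 -0.28 and Hsd17b4 -0.14 (log2). Library size without the 50 genes with the most counts gave 3 lower and 18 and 16 other pathway genes, with Pex5 at -0.17, Pex14 -0.11, Pex2 -0.19, Pex10 -0.25, Pex16 -0.16 and Acox3 -0.081. These scalings shift all genes together, as the median of all tested genes shows (-0.73 and -0.53). Of all tested genes they called 1443 and 2059 higher and 10421 and 7658 lower. With offsets for transcript length Pex6 was at 0.12 (0.15 with the replicate block). With 1 library left out Pex6 was from -0.29 to 0.023 (without nmSC replicate 4) and Pex10 from -0.0064 (without mSC replicate 4) to 0.27. Fits of only the gates compared gave 4 other pathway genes lower.

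In mSC against allSC, library size alone gave 0 higher and 1 lower, among 415 higher and 3985 lower of all tested genes. The scaling without 50 genes gave 2 higher, among 643 higher of all tested genes. Length offsets gave 5116 called genes (4912 with the replicate block), and no filter a distance of 0.49. With 1 library left out, 5 to 13 were higher, 0 lower, 2205 to 4204 genes were called and the distance was 0.37 to 0.44. In nmSC against allSC, 1 was higher with either library size scaling, the DESeq2 Wald test or fits of only those gates. With library size alone 3 were lower, among 2207 higher and 744 lower of all tested genes. With the scaling without 50 genes 4 were lower, among 1212 higher and 943 lower. Library size alone called 2951 genes and fits of only those gates 2899. Leaving out 1 library gave 5 to 10 lower, 0 higher, 1344 to 1706 called genes and a distance of -0.46 to -0.27. With the subject number as a replicate block, 15 of the 25 were higher in mSC than in nmSC (Pex26 was lost, adjusted p = 0.0717) and 9 higher in mSC than in allSC (Gnpat, Amacr and Cat were lost), and the block changed no other call on these genes. Where a cause is not given, it was not tested. Depth limits Abcd2 most, with 9 counts in 1 library.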
